A study of Mus musculus with 24 samples.

Results

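Rag1, Rag2 and Dntt encode the enzymes that assemble and diversify antigen receptor genes in lymphocytes. These 3 genes of the 18193 measured were taken by symbol, with every probe set (a group of short array probes read as 1 signal) that lists one of them: 1450680_at for Rag1, 1418065_at for Rag2, and 1449757_x_at, 1450545_a_at and 1420166_at for Dntt, 5 of 45101 probe sets in all. Their RNA was measured on 24 Affymetrix Mouse430_2 arrays of double-positive thymocytes, immature T cells that carry both CD4 and CD8, which had been sorted with antibodies to those 2 proteins from the thymus of male Black 6J mice aged 8 weeks. The 4 genotypes were wild type, Sap KO, Elk KO and the combined Elk/Sap KO, with 3 mice each. The series title places the study in the role of ternary complex factors, partners of the serum response factor Srf, in T-cell positive selection. The sorted cells of each mouse rested for 2 h, were spun onto plates coated with anti-CD3 (an antibody that triggers the T cell receptor complex) or onto uncoated plates, and were kept there for 30 min. The uncoated cells are called untreated here, and they too had been sorted, rested and plated. The sources used here do not say how each knockout was made or in which cells the alleles were deleted.

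The Rag1 and Rag2 proteins form one recombinase that binds the signal sequences beside V, D and J segments and cuts the DNA there. Ubiquitous end-joining proteins then ligate the ends, and terminal deoxynucleotidyl transferase, the product of Dntt, adds nucleotides to them without a template. In double-positive thymocytes the recombinase rearranges the T cell receptor alpha chain, and it is known to be switched off when a receptor passes positive selection.

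The 250 bases upstream of each RefSeq start (assembly GRCm38.p6) are printed so that the motif content at the starts of the 3 genes can be compared. Rag1 and Rag2 are neighbours on chromosome 2 and point toward each other, so these windows lie at the far ends of the pair, and Dntt is on chromosome 19. Sequences run 5′ to 3′ on the strand of the gene, and capitals mark motif matches.
Rag1, chr2:101649533-101649782, minus strand: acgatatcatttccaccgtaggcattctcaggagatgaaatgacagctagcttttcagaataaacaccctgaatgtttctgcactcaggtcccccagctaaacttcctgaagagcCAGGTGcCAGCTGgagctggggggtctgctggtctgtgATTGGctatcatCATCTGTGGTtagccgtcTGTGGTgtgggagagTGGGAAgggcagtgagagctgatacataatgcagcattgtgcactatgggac
Rag2, chr2:101624462-101624711, plus strand: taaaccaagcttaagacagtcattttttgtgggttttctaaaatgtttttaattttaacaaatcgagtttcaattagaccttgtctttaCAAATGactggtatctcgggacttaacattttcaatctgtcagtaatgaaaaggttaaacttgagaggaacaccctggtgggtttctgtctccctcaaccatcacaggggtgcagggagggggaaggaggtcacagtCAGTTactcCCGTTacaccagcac
Dntt, chr19:41029025-41029274, plus strand: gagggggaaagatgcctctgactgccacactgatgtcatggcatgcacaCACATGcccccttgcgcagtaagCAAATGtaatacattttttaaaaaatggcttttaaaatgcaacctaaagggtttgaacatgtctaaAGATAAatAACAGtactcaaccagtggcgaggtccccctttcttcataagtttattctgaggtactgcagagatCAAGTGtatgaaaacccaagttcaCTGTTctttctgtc
The motifs were searched on both strands by their letters. Capitals in the Rag1 window mark 3 E-boxes (CANNTG, bound by E proteins such as the Tcf3 product), the last of them overlapping the first of 2 Runx sites (TGTGGT), and 1 CCAAT box (CCAAT, read on the opposite strand) and 1 Ikaros core (TGGGAA). The Rag2 window holds 1 E-box and 2 Myb sites (AACNG) on the opposite strand. The Dntt window holds 3 E-boxes, 1 GATA site (AGATAA) and 2 Myb sites. Of 32851 such mouse windows in the table, 66.2% hold an E-box, 74.2% a Myb site, 33.8% a CCAAT box, 21.6% an Ikaros core, 14.0% a Runx site and 9.99% a GATA site. None of the 3 windows held CCGGAA, a narrow form of the ETS site (12% of windows), or the CArG box known for Srf (1.47%). The shorter ETS core GGAA was not searched and occurs in each of the 3 printed windows, so sites of ETS factors are not shown to be absent. Also not found were an AP-1 site (TGANTCA, 6.75%), an EGR site (GCGNGGGCG, 4.7%), a forkhead site (GTAAACA, 3.17%) and a TATA box (TATAAA, 12.4%). These matches describe letters and not bound sites, and distal elements were not searched.

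All signals below are log2 values after RMA, so a difference of 1 is a doubling, and a level is read only against the same probe set on other arrays. The label checks and markers were as follows. Elk4, which encodes Sap-1, was lower in Sap KO than in wild type by 3.25 ± 0.189 (SE) on the log2 scale, averaged over both states (limma adjusted p = 2.62e-10). Elk1 lay at 4.03 to 5.23 on all 24 arrays, beside a highest signal of 5.07 for Xist, which male cells lack, so it gives only a weak check of the Elk label. The 11 measured double-positive markers averaged 10.5 to 11.1 per array. Of the markers of other lineages, 8 of 10 B cell genes, 6 of 9 macrophage and dendritic genes, 6 of 6 granulocyte genes, 2 of 2 erythroid genes and 5 of 7 epithelial and stromal genes had a mean at or below the highest Xist signal. For other T cell stages fewer did: 4 of 8 markers of double-negative thymocytes, which carry neither CD4 nor CD8, and 2 of 8 of mature single-positive cells. One array differed from the rest, that of untreated Elk/Sap KO mouse 2: its deviations from each probe set's median had an interquartile range of 0.782, against 0.182 to 0.383 on the other 23 arrays. Because the samples were bulk RNA, fewer cells with a transcript and less transcript per cell cannot be told apart.

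Rag1 RNA was lower after 30 min on anti-CD3 in all 4 genotypes. In wild type the Rag1 signal was 13.08, 13.15 and 13.12 in untreated mice 1, 2 and 3, and 12.46, 12.41 and 12.35 in the stimulated cells of the same mice. In Sap KO the untreated values were 13.21, 13.01 and 13.17 and the stimulated values 12.55, 12.39 and 12.60. Each stimulated array of these genotypes lay below each untreated one. In Elk KO the signal was 13.08, 13.06 and 13.13 in untreated cells and 12.55, 12.33 and 12.53 in stimulated cells. In Elk/Sap KO it was 13.00, 12.89 and 13.12 in untreated cells and 12.53, 12.37 and 12.27 in stimulated cells. The groups did not overlap in any genotype, a pattern of lower signal seen in 4.64% of genes in wild type, 6.3% in Sap KO, 4.56% in Elk KO and 1.67% in Elk/Sap KO. Across genotypes the 12 stimulated arrays spanned 12.27 to 12.60 and the 12 untreated arrays 12.89 to 13.21. Rag1 was the single gene of 18193 (0.0055%) whose stimulated arrays all lay below all untreated arrays.

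**Figure D1:**
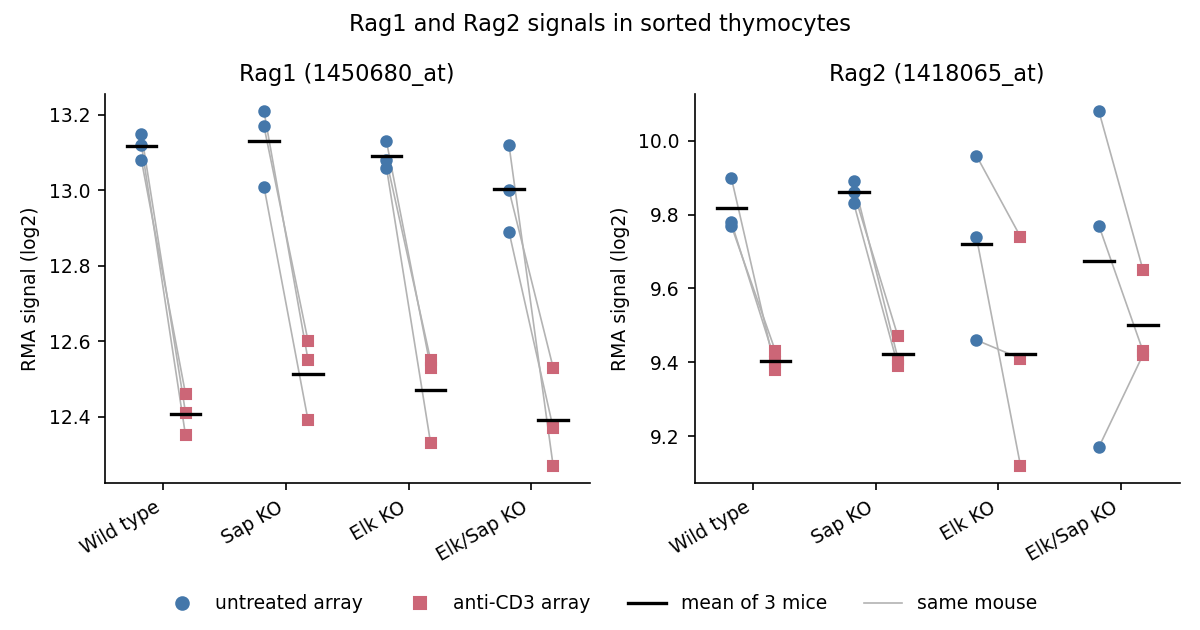
RMA signal (log2, vertical axes) of Rag1 and Rag2 on each array, by genotype, with circles for untreated and squares for anti-CD3 arrays, grey lines joining the arrays of a mouse and bars at the mean of 3 mice; the axes do not start at 0 and differ between panels. Rag1 squares lie at 12.27 to 12.60 and circles at 12.89 to 13.21 in every genotype, whereas Rag2 squares and circles overlap in Elk KO and Elk/Sap KO.

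The averaged fall of Rag1 was large against its spread. Over the 4 genotypes the Rag1 response was -0.64 ± 0.0528 (log2 ± SE, 95% interval -0.75 to -0.53), or 1.56-fold lower, with an adjusted p of 3.68e-08 by limma. Of all genes, 0.434% were called lower in this average (79 genes, where called means an adjusted p under 0.05). Rag1 had the smallest p among those 79 falls and was the 8th of them by size. Within mice the change averaged -0.639 ± 0.115 (SD, n = 12 mice), from -0.858 in Elk/Sap KO mouse 3 to -0.470 in Elk/Sap KO mouse 1, and 12 of 12 mice went down, as did 0.561% of genes. By genotype the response was -0.71 ± 0.106 in wild type (SE, limma adjusted p = 0.00078), -0.61 in Sap KO (0.00383), -0.62 in Elk KO (0.00643) and -0.62 in Elk/Sap KO (0.00463). The shares of genes called lower were 0.022%, 0.022%, 0.0055% and 0.0165% in the same order, so Rag1 was the 1 gene called lower in Elk KO. The Elk KO call was lost without untreated mouse 3 (-0.60, adjusted p = 0.0566) or stimulated mouse 2 (-0.55, 0.0781) of that genotype, and the Elk/Sap KO call with arrays centred on their medians (-0.58, 0.0559). Both calls were also lost when only the arrays of that genotype entered the fit (-0.618, adjusted p = 0.1125, and -0.616, adjusted p = 0.9995).

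Rag2, the partner subunit, moved down by less and less evenly. In wild type the Rag2 signal was 9.78, 9.77 and 9.90 in untreated mice 1, 2 and 3 and 9.40, 9.43 and 9.38 after anti-CD3. In Sap KO it was 9.86, 9.89 and 9.83 in untreated and 9.47, 9.41 and 9.39 in stimulated cells. In these 2 genotypes the groups did not overlap, a pattern of lower signal seen in 4.64% of genes in wild type and 6.3% in Sap KO. In Elk KO the untreated values were 9.46, 9.74 and 9.96 and the stimulated values 9.41, 9.12 and 9.74. In Elk/Sap KO they were 9.77, 9.17 and 10.08 in untreated cells and 9.43, 9.42 and 9.65 in stimulated cells. The groups overlapped in both of these genotypes, and the lowest untreated value, 9.17, came from the array that differed from the rest. The Rag2 response averaged over genotypes was -0.33 ± 0.0884 (log2 ± SE, 95% interval -0.51 to -0.15), or 1.26-fold lower, and was not called (limma adjusted p = 0.0743). With the mouse as a block, which pairs both arrays of an animal, the same difference had an adjusted p of 0.0273, and 0.682% of genes were called lower. Without both arrays of Elk/Sap KO mouse 2 it was -0.382 (limma adjusted p = 0.00379). In single genotypes the Rag2 response was -0.42 ± 0.177 in wild type (SE), -0.43 in Sap KO, -0.30 in Elk KO and -0.17 in Elk/Sap KO, none of them called by limma (adjusted p of 0.749 or more). The unadjusted p was under 0.05 in wild type (0.0284) and Sap KO (0.0227), as for 4.23% and 2.23% of all genes.

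Compared mouse by mouse, Rag1 dropped further than Rag2 in 12 of 12 animals on the log2 scale. The share of all genes that Rag1 passes in this way was not counted, and 2 probe sets may not scale alike. The Rag2 change was negative in 11 of 12 mice, as in 3.25% of genes at least, and averaged -0.33 ± 0.233 (SD, n = 12 mice). The exception was Elk/Sap KO mouse 2, at 0.249, and the drop in Elk KO ran from -0.052 in mouse 1 to -0.624 in mouse 2. In these 3 mice the untreated array was not closest to its own stimulated array once group means were removed. Their pairs correlated at -0.035 in Elk/Sap KO mouse 2 and at 0.1 and 0.201 in Elk KO mice 1 and 2. The pairing was kept as labelled, so these within-mouse changes are less certain. Across the 12 mice the changes of Rag1 and Rag2 had a Pearson r of 0.567 (permutation p = 0.0532, two-sided, 0.105 after adjustment over 3 pairs of genes) and a Spearman rho of 0.622 (permutation p = 0.0339, adjusted 0.102). Without the 2 mice farthest from the median Rag1 change r was 0.728. Rag1 with Dntt gave r of 0.303 and rho of 0.322 (permutation p = 0.34 and 0.307, adjusted 0.34 and 0.308), and r of 0.477 without the 2 farthest mice. Rag2 with Dntt gave r of 0.546 and rho of 0.322 (permutation p = 0.0697 and 0.308, adjusted 0.105 and 0.308), and r of 0.135 without the 2 farthest mice. With arrays centred on their medians r was higher, at 0.787 for Rag1 and Rag2, 0.693 for Rag1 and Dntt and 0.777 for Rag2 and Dntt. Centring takes the same value off both genes of an array, which can itself raise r, and these values were not tested. No relation passed the adjustment without centring, and a single genotype has too few mice for its own value.

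**Figure D2:**
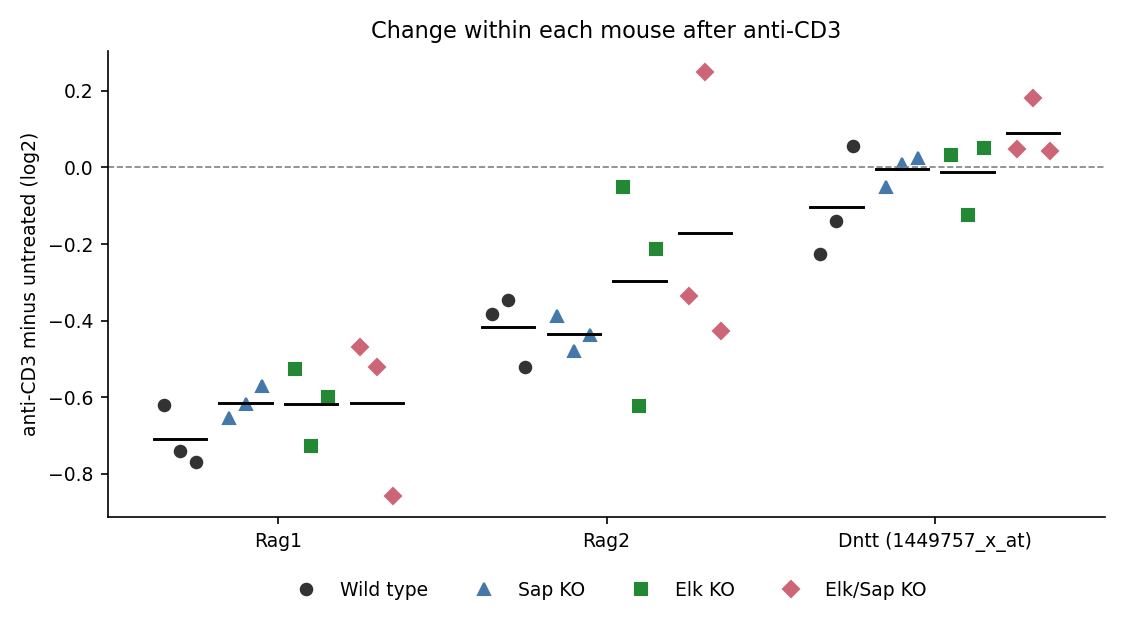
Change in log2 signal from untreated to anti-CD3 within each of 12 mice (vertical axis) for Rag1, Rag2 and the brightest Dntt probe set, by genotype, with bars at the mean of 3 mice. Rag1 points lie at -0.858 to -0.470, Rag2 points from -0.624 to 0.249 and Dntt points around 0.

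Dntt, the transferase gene, did not pass the test for a response. Its brightest probe set, 1449757_x_at, stood for the gene; the x in the name marks probes that may also bind other transcripts. It read 12.56, 12.55 and 12.60 in untreated wild-type mice 1, 2 and 3, and 12.33, 12.41 and 12.66 after anti-CD3. The stimulated values of mice 1 and 2 were the lowest of all 24 arrays, and that of mouse 3 lay above its untreated partners. The remaining 18 arrays lay between 12.47 and 12.82. The averaged response was -0.01 ± 0.0513 (SE, 95% interval -0.11 to 0.10, limma adjusted p = 0.999), and 4 of 12 mice went down by it. The interval leaves out a fall as large as that of Rag1. The second probe set, 1450545_a_at, spanned 12.23 to 12.74, with an averaged response of -0.02 ± 0.0559 (SE, adjusted p = 1 over 45037 probe sets by limma). Its change was negative in 10 of 12 mice and ran from -0.110 to 0.139. In Sap KO its stimulated arrays (12.66 to 12.68) lay below its untreated ones (12.72 to 12.74), as for 6.3% of genes. The third, 1420166_at, had an averaged response of 0.08 ± 0.228 (SE, limma adjusted p = 1) and went down in 6 of 12 mice. The shares of probe sets with such counts of mice were not computed.

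**Figure D3:**
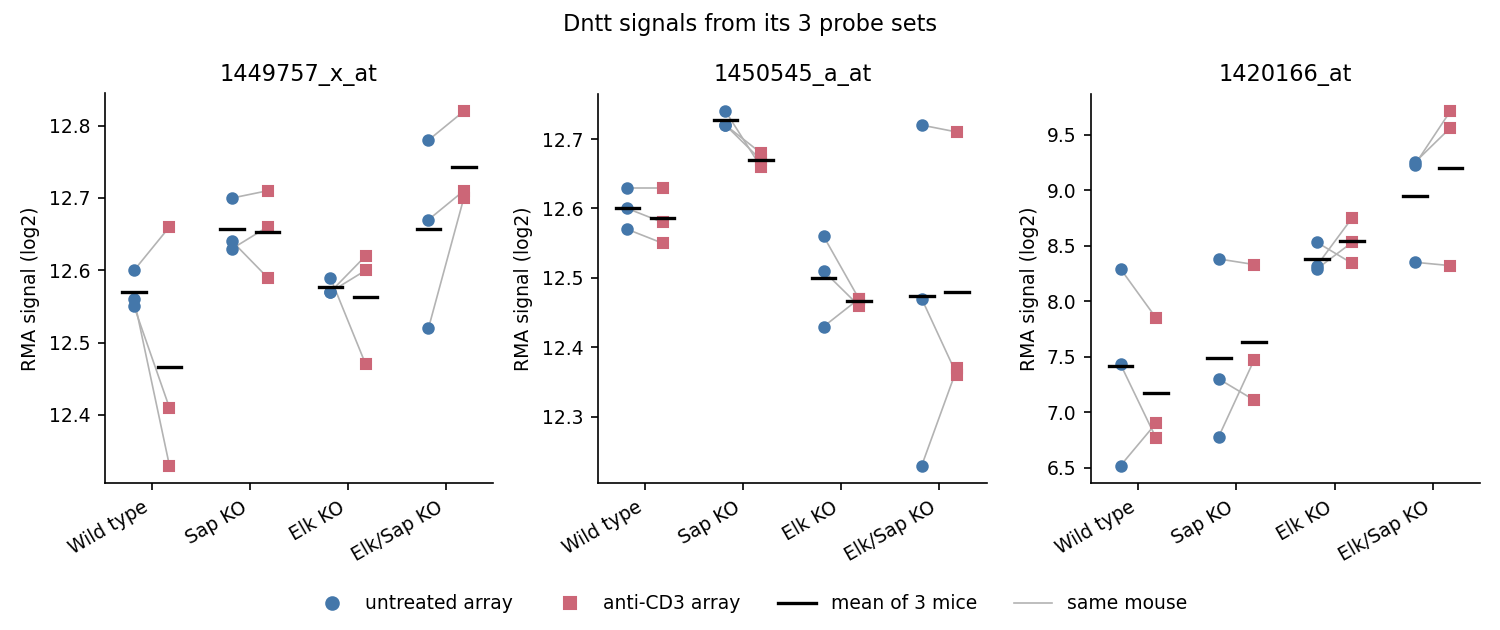
RMA signal (log2, vertical axes) of the 3 Dntt probe sets on each array, by genotype, with circles for untreated and squares for anti-CD3 arrays, grey lines joining the arrays of a mouse and bars at the mean of 3 mice; the axes do not start at 0 and differ between panels. The first 2 probe sets stay within 12.23 to 12.82, whereas 1420166_at runs from 6.52 to 9.71.

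The 3 Dntt probe sets did not order the genotypes alike. With both states averaged, Elk/Sap KO minus wild type was 0.18 ± 0.0725 for 1449757_x_at (SE, limma adjusted p = 0.0914), -0.12 ± 0.0791 for 1450545_a_at (adjusted p = 0.334) and 1.78 ± 0.323 for 1420166_at (adjusted p = 0.00094). Of probe sets, 17.6% were called in this comparison, in either direction. For 1420166_at Elk KO minus wild type was also called, at 1.17 ± 0.323 (SE, limma adjusted p = 0.0456, beside 4.12% of probe sets), a call that was lost in 14 of the 24 fits without 1 array. For 1450545_a_at the mean of each Sap KO mouse lay above each wild-type mouse, as for 5.18% of probe sets, and the mean of each Elk KO mouse lay below, as for 12.4%. The differences in those means were 0.106 and -0.110, with an exact permutation p of 0.1 each, two-sided, the smallest that 3 mice against 3 allow.

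The signal of 1420166_at moved with a control that does not come from the mice. Dap transcripts are bacterial RNAs added as a labelling control, and 8 arrays (wild-type mice 1 and 2 and Sap KO mice 1 and 3, in both states) read 6.00 to 6.60 for Dap, against 8.81 to 9.66 on the other 16. On the 8 low arrays 1420166_at read 6.52 to 7.47, and on the 16 high arrays 7.85 to 9.71, so the 2 sets did not overlap. The share of all probe sets that separate in this way was not counted. All Elk KO and Elk/Sap KO arrays were among the 16. In wild-type mouse 3 and Sap KO mouse 2, both high for Dap, 1420166_at read 7.85 to 8.38, and in the 6 Elk KO arrays 8.29 to 8.75. The highest values, 9.23 to 9.71, were those of Elk/Sap KO mice 1 and 2, where the 3′ minus 5′ difference of the Actb control, a measure of RNA and labelling quality, was 0.648 to 1.05. Mouse 3 of that genotype read 8.35 and 8.32, with an Actb difference of 0.545 to 0.579. Elk KO mouse 3 had an Actb difference of 0.654 and 0.603, in the range of those mice or just below, and read 8.29 and 8.53. With the Dap level as a block, chosen after seeing the data, the Elk KO difference was 0.38 (limma adjusted p = 0.732) and the Elk/Sap KO difference 0.99 (adjusted p = 0.0343). Among mice with high Dap the 2 differences were 0.389 and 0.999 (limma adjusted p = 1 and 0.31), with 1 wild-type mouse left. Over the 24 arrays 1450545_a_at had a Pearson r of -0.547 with Dap and -0.67 with the Actb difference. Within wild type and Sap KO, however, it read 12.55 to 12.72 on the 4 arrays with high Dap and 12.58 to 12.74 on the 8 with low Dap. It read 12.43 to 12.56 on the 6 Elk KO arrays, all high for Dap, and 12.55 to 12.74 on the wild-type and Sap KO arrays, of which 8 were low. Elk/Sap KO mice 1 and 2 read 12.23 to 12.47 for it, and mouse 3 read 12.71 to 12.72. The part of labelling or RNA quality in the signals of these 2 probe sets was not tested. The Rag1 change averaged -0.646 in the 4 mice with low Dap and -0.636 in the 8 with high Dap, and that of Rag2 -0.388 and -0.300, with a drop of Rag2 in 4 of 4 and 7 of 8 mice.

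**Figure D4:**
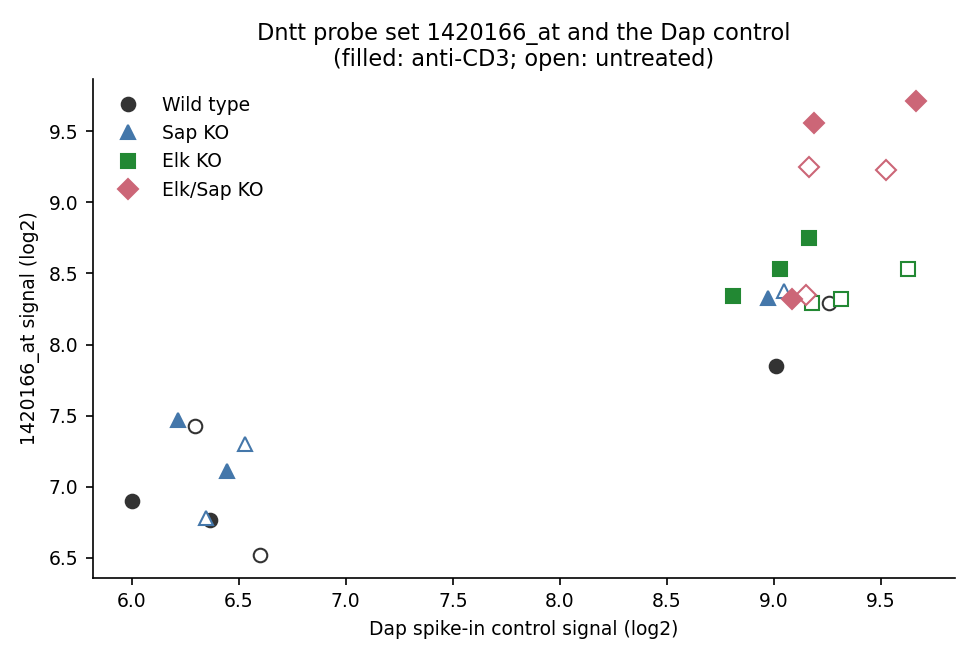
Signal of Dntt probe set 1420166_at (log2, vertical axis) against the Dap labelling control (log2, horizontal axis) on 24 arrays, with the marker shape giving the genotype and filled markers the anti-CD3 arrays. The 8 arrays with Dap at 6.00 to 6.60 read 6.52 to 7.47 for this probe set and the other 16 read 7.85 to 9.71.

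None of the 3 genes was called in a comparison of a knockout with wild type, in untreated cells, in stimulated cells or in both averaged (9 comparisons of 3 genes by limma, of which 2 had an unadjusted p under 0.05, both of Dntt in Elk/Sap KO, in stimulated cells and over both states, where 21.5% and 30.9% of all genes had such a p). Dntt was called higher there, averaged over states, with array weights (0.169), with averaged probe sets (0.614), without mouse 2 of that genotype (0.225) or its untreated array alone (0.214), and without the stimulated array of wild-type mouse 3 (0.229). The averaged probe sets take in 1420166_at, which alone gave 1.78. Of the 18193 genes, array weights called 7283 in this comparison, averaged probe sets 2900 and the fit without mouse 2 called 3376. Fits without 1 array called 2089 to 5112. With the Dap level as a block the Dntt difference was 0.099 (limma adjusted p = 0.5075). The averaged comparisons called 0.236% of all genes in Sap KO, 3.38% in Elk KO and 17.1% in Elk/Sap KO. In untreated cells the shares were 0.0824%, 0.0989% and 3.44%, and in stimulated cells 0.0715%, 0.22% and 6.83%. For Rag1 the difference from wild type, averaged over states, was 0.06 ± 0.0746 in Sap KO (SE, 95% interval -0.09 to 0.22), 0.02 in Elk KO (-0.13 to 0.18) and -0.06 in Elk/Sap KO (-0.22 to 0.09). For Rag2 it was 0.03 ± 0.125 (-0.23 to 0.29), -0.04 (-0.30 to 0.22) and -0.02 (-0.28 to 0.24). These fits treat the 2 arrays of a mouse as separate samples. An exact permutation test of mouse means gave p from 0.2 to 1 for Rag1 and Rag2, two-sided, with 0.1 as the smallest p possible. The response in a knockout minus that in wild type did not pass the test either: Rag1's was less negative by 0.09 ± 0.149 in each knockout (SE, limma adjusted p of 0.829 or more, 95% interval -0.22 to 0.40 in Elk/Sap KO), and Rag2's differed by -0.02, 0.12 and 0.24 ± 0.25 (adjusted p of 0.744 or more, -0.28 to 0.76 in Elk/Sap KO). Among all genes 0 (0.0%) were called for these differences, with 143 in Sap KO, 165 in Elk KO and 982 in Elk/Sap KO at an unadjusted p under 0.05. Fits with array weights, averaged probe sets or only the arrays compared called 0 to 2.

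Of the genes that act with or on these enzymes, few passed the test in the averaged response, where 1.45% of all genes were called in either direction and the median change was 0.0068. Among the factors known to act at Rag or Dntt genes, 16 of 18 were measured, 2 rose (beside 1.02% of all genes), 0 fell, and their median was -0.0403. Gata3, a zinc-finger factor of the T cell lineage, went from a mean of 7.20 in untreated to 8.12 in stimulated arrays, a response of 0.91 ± 0.0954 (SE, limma adjusted p = 1.39e-06), and was higher in 12 of 12 mice. Id3, an inhibitor that keeps E proteins from binding DNA, went from 9.94 to 10.7, a response of 0.75 ± 0.0967 (limma adjusted p = 3.48e-05), also up in 12 of 12 mice. In single genotypes Gata3 was called in wild type (1.03), Sap KO (0.98) and Elk KO (1.00) but not in Elk/Sap KO (0.64, limma adjusted p = 0.361), and its response there differed from wild type by -0.38 ± 0.27 (SE, adjusted p = 0.703). Genes called higher made up 0.33%, 0.341%, 0.198% and 0.33% in wild type, Sap KO, Elk KO and Elk/Sap KO. Id3 was called in wild type (0.89) and Sap KO (0.93), with 0.59 in Elk KO and 0.56 in Elk/Sap KO, and its wild-type call was lost with the mouse as a block (limma adjusted p = 0.0587). The E protein genes themselves did not pass: Tcf3 had an averaged response of -0.04 and Tcf12 of 0.02 (limma adjusted p = 0.999 each). Runx1, Ikzf1 and Myb, whose product families have motifs in the windows above, had -0.29, 0.004 and 0.05, also not called.

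**Figure D5:**
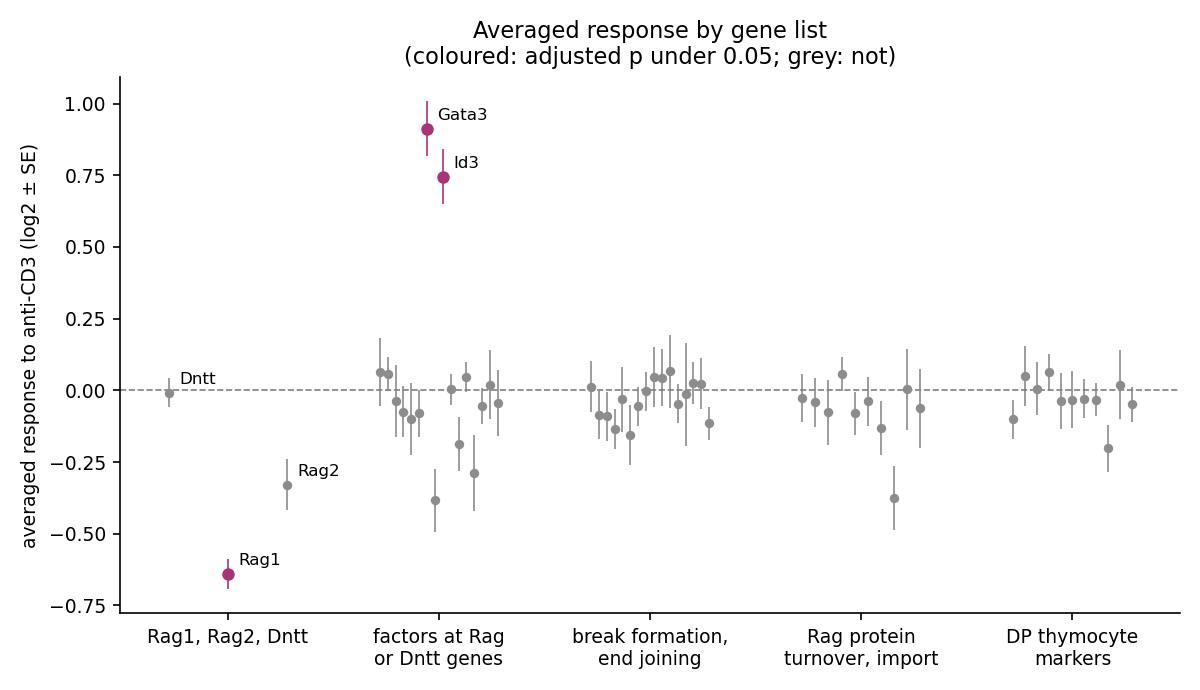
Averaged response to anti-CD3 (log2 ± SE, vertical axis) of each measured gene in 5 lists, with the genes of adjusted p under 0.05 in colour and named. Rag1 at -0.64, Gata3 at 0.91 and Id3 at 0.75 are the 3 coloured genes; Rag2 and Dntt are named in grey.

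For the machinery downstream of the cut 0 genes were called, beside 1.45% of all genes, so the lists are too short to be told from the background. Of the genes for break formation and end joining, 16 of 19 were measured, 0 were called by limma (0 also with the mouse as a block and with array weights, and 1 lower without Elk/Sap KO mouse 2), and their median response was -0.0227. Among them were Xrcc6, a Ku subunit (-0.12), Lig4, the ligase of the pathway (-0.14), Prkdc, the DNA-dependent kinase (0.07), and Poll and Polm, polymerases related to Dntt (0.05 and 0.04). Of 10 genes for turnover or nuclear import of the Rag proteins 0 were called, with a median of -0.0522; Skp2 and Cdk2, which act in the cell-cycle degradation of Rag2, had -0.06 and -0.04. With the mouse as a block, which called 0.682% of all genes lower, 1 of these 10 was called lower. The 11 double-positive markers had 0 called and a median of -0.0326. Of 8 measured markers of mature single-positive cells, Ccr4 rose by 1.39 and Ccr7 fell by 0.95, and the median response was -0.1374 averaged over genotypes and -0.3769 in wild type. The mean of this list per array was 6.22 to 6.66 in untreated and 6.05 to 6.29 in stimulated wild-type cells. It was 6.07 to 6.24 and 6.09 to 6.26 in Sap KO, 5.90 to 6.58 and 5.90 to 6.56 in Elk KO, and 5.47 to 5.80 and 5.52 to 5.78 in Elk/Sap KO. The part of cell composition in the Rag1 change was not tested.

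In the combined knockout, where 17.1% of all genes were called, 4 of the 16 factors were among them; the genes named here were chosen after their values were seen. Averaged over states, 3 factors were lower in Elk/Sap KO than in wild type and 1 was higher, beside 12.5% of all genes lower and 4.63% higher, and the median was -0.2156 beside 0.0297 for all genes. Runx1 differed by -1.06 ± 0.188 (SE, limma adjusted p = 0.000787), Tcf3 by -0.73 (0.00419), Lef1 by -0.53 (0.00816) and Foxp1, a forkhead factor, by 0.57 (0.00247). Of the turnover genes 3 of 10 were lower, and of the end-joining genes 2 of 16, among them the histone gene H2ax at -0.60. The double-positive markers had 4 of 11 lower, Cd4 by -0.73 and Cd8a by -0.46 among them, and the mature markers 5 of 8. Of the double-negative markers 0 of 8 were lower and 1 was higher. These groups also differ in Dap and Actb readings, and with the Dap level as a block the genes called in either direction numbered 930 instead of 3117, or 12 among mice with high Dap alone. With that block the counts lower were 2 of 16 factors, 1 of 10 turnover genes, 1 of 16 end-joining genes, 1 of 11 double-positive and 2 of 8 mature markers. The share of all genes called lower with that block is not given here, so these counts cannot be set against a background.

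The genes beside the members did not pass the test for a response. Around the Rag pair these were Api5, Lrrc4c, Iftap, Traf6, Prr5l and Commd9, and around Dntt they were Ccnj, Zfp518a, Blnk, Opalin, Tll2 and Tm9sf3. Their averaged responses ran from -0.28 in Commd9 to 0.06 in Iftap, with limma adjusted p of 0.166 or more, and 0 of 12 were called, beside 1.45% of all genes. Iftap, which overlaps Rag2 on the opposite strand in RefSeq, read 9.29 in untreated and 9.35 in stimulated arrays. Traf6, the next coding gene beyond the Rag1 start, was lower in Elk/Sap KO than in wild type by 1.15 on the log2 scale (limma adjusted p = 0.00171), and Ccnj and Tm9sf3 by 0.83 and 0.61 (0.00357 and 0.0151). In that comparison 12.5% of all genes were called lower, and the 2 genotypes also differ in Dap and Actb readings. Traf6 ran from 6.18 to 8.23 in untreated Elk/Sap KO and from 8.69 to 8.97 in untreated wild type.

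Over the 24 arrays, and among 6572 genes with a mean signal of at least 7, the pattern most like that of Rag1 was found in Atg12 (Pearson r = 0.851), Txnip (0.844), Tubb2a (0.824), Kcna2 (0.806) and Ccdc174 (0.797). All 5 were called lower in the averaged response, from -0.22 in Ccdc174 to -1.07 in Txnip, beside 0.434% of all genes. They were picked by r over arrays on which Rag1 separates by treatment, so their fall follows largely from that choice. Once the group means were removed, the r of these 5 genes with Rag1 was -0.121 to 0.426. For Rag2 the 5 nearest were Orc5 (0.872), Tmem106b, Ormdl1, Epg5 and Zfp157 (0.808), and these kept r of 0.732 to 0.865 without the group means. For Dntt they were Mgst2 (0.792), Ccdc93, Nmt2, Slc30a4 and Gbp6 (0.746), at 0.7 to 0.772 without the group means. Rag1 and Rag2 themselves had r of 0.715, and 0.43 without the group means, Rag2 and Dntt had 0.356, and 0.556 without the group means, and Rag1 and Dntt had 0.0287 and 0.021. These arrays share treatment, mouse and labelling differences, so the values describe the pattern only.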

How the data were processed

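The authors' deposited values are log2 signals of 45101 Mouse430_2 probe sets on 24 arrays, made with RMA (background correction, quantile normalization and summary of the probes) in affy, per the submitters' processing notes; the sources used here give no version and no build. The number of arrays limits the precision. Control probe sets (64) were left out. A gene was given by its brightest probe set with a single symbol (18193 genes), and other member probe sets by a fit of 45037 probe sets. limma 3.58.1 in R 4.3.3 fitted a mean per group (16 residual degrees of freedom, 17 contrasts). P values were two-sided and adjusted by Benjamini-Hochberg over all features within a contrast, and called means an adjusted p under 0.05. The labels name the mouse of each array, which pairs the untreated and stimulated arrays. After removal of group means, the 12 pairs correlated at -0.035 to 0.851 over 8361 genes, with 10 above 0.1, and in 9 of 12 mice the untreated array was closest to its own stimulated partner. The block fit has 8 residual degrees of freedom. On simulated data, the wild-type response fit over 18193 genes recovered 34% of changes of 0.5, 90% of 1 and 74% of -1. The simulation used 50 genes per change and independent normal noise, without shared mice or Dap and RNA quality differences. Rises and falls were drawn on different genes, so their shares are not compared. The exact permutation tests used scipy 1.17.1, and correlations 100000 permutations. Genes named were the members, up to 4 called list genes in the averaged or wild-type response, Elk1 and Elk4, 3 coding neighbours on each side and the 5 genes most like each member. Other list genes were named as examples after their values were seen. The members and lists were chosen with earlier results of these data known. Alternatives were the mouse block, median centring, array weights, a filter on dim genes, averaged probe sets, only the arrays compared, and each array left out; those on Dap level and Elk/Sap KO mouse 2 were added after seeing the data.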

Additional observations from a re-analysis of the deposited data

How the results depend on the processing

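The averaged fall of Rag1 kept its direction and its call under each alternative that was run. Some of its calls in single genotypes were lost, and the cause was not tested: only the arrays compared gave -0.618 in Elk KO (limma adjusted p = 0.1125) and -0.616 in Elk/Sap KO (0.9995), median centring gave -0.582 in Elk/Sap KO, and mice with high Dap gave -0.768 in wild type, -0.618 in Sap KO, -0.618 in Elk KO and -0.616 in Elk/Sap KO, none called, as did mice with low Dap (-0.679 in wild type and -0.613 in Sap KO). With 1 mouse left in a group, that mouse is assumed to vary like the others. The replicate block (mouse) gave -0.329 for the averaged Rag2 response and made it a call, as did the dim filter (-0.329), array weights (-0.368) and leaving out Elk/Sap KO mouse 2 (-0.382); the block changed no other call of a member. The Sap KO response of Rag2 was called with array weights (-0.421) and with only the arrays compared (-0.435). For the Sap KO response these fits called 229 and 157 genes in either direction, against 66 without these changes, so the Rag2 call came with more calls among all genes. Dntt was called higher in Elk/Sap KO, over both states, with array weights (0.169), averaged probe sets (0.614, and 0.731 in stimulated cells) and without mouse 2 (0.225), its untreated array alone (0.214) or the stimulated array of wild-type mouse 3 (0.229). With array weights 1450545_a_at was called lower there (-0.248).

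Other differences that changed sign were uncalled and near 0, and the cause was not tested. Mice with high Dap gave, as knockout minus wild type, -0.105 (untreated) and -0.03 (both states) for Rag1 in Sap KO, 0.039 (stimulated) for Rag1 in Elk/Sap KO, -0.01 (untreated) for Rag2 in Sap KO, and -0.027, -0.097 and -0.062 for Dntt in Elk KO. As responses they gave 0.056, 0.01 and 0.036 for Dntt in wild type, Sap KO and on average, -0.019 for 1420166_at on average, and differences from the wild-type response of 0.042 for Rag2 and -0.047 for Dntt in Sap KO and -0.069 for Dntt in Elk KO. The Dap block gave 0.047 for Rag1 in untreated Elk KO, 0.056 and 0.009 for Rag1 in Elk/Sap KO (stimulated, both states) and -0.074 and -0.029 for Dntt in Elk KO. Median centring gave 0.013 for Rag1 in untreated Elk KO, 0.02 for Rag1 in stimulated Elk/Sap KO and 0.008 for the Sap KO difference in Rag2 response. Array weights gave -0.016 for Rag2 in stimulated Elk KO, 0.001 for Rag2 in Elk/Sap KO and 0.013 for the averaged 1450545_a_at response. Without Elk/Sap KO mouse 2, Rag2 in that genotype was 0.104 in untreated cells and 0.122 in both states. Averaged probe sets gave Dntt responses of 0.028 in Sap KO, 0.039 in Elk KO and 0.016 on average.

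Leaving out each array in turn gave ranges. The Rag1 response was -0.66 to -0.548 in Elk KO, and Rag1 minus wild type -0.023 to 0.074 in untreated Sap KO, -0.001 to 0.055 in Elk KO and -0.086 to 0.044 in stimulated Elk/Sap KO. The averaged Rag2 response was -0.392 to -0.279 and was called without Elk/Sap KO untreated mouse 2, Elk KO untreated mouse 1 or Elk KO stimulated mouse 3. In Elk/Sap KO it was -0.422 to 0.031. Rag2 minus wild type was -0.004 to 0.037 in stimulated Sap KO, -0.214 to 0.034, -0.136 to 0.176 and -0.116 to 0.04 in Elk KO (untreated, stimulated, both), and -0.348 to 0.104 and -0.125 to 0.101 in Elk/Sap KO (untreated, both). Differences in the Rag2 response were -0.058 to 0.005 in Sap KO, -0.04 to 0.272 in Elk KO and -0.006 to 0.447 in Elk/Sap KO. Dntt responses were -0.033 to 0.025 in Sap KO, -0.041 to 0.035 in Elk KO and -0.032 to 0.009 on average, and Dntt minus wild type -0.003 to 0.025 in untreated Elk KO and 0.146 to 0.229 in Elk/Sap KO. The averaged response was -0.054 to 0.007 for 1450545_a_at and -0.031 to 0.192 for 1420166_at, whose Elk KO call was lost in 14 of 24 such fits. The averaged response called 264 genes, 1091 with array weights, 450 without Elk/Sap KO mouse 2 and 59 in mice with high Dap. Over both states the genes called against wild type numbered 43 in Sap KO, 615 in Elk KO and 3117 in Elk/Sap KO; array weights gave 141, 3116 and 7283, only the arrays compared 91, 1460 and 1018, the Dap block 39, 43 and 930, and mice with high Dap 4, 4 and 12.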
